A study of Setaria italica with 6 samples.

Results

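In spikelets of the foxtail millet mutant Siysl1, 118 annotated genes stood at least 8 times above their level in the wild type. They were chosen from the count table by these 2 genotypes' own values. Each has a mean of at least 2 CPM (counts scaled to the library total) in Siysl1 and a ratio of at least 8, where the ratio is the mean Siysl1 CPM plus 0.1 over the mean WT CPM plus 0.1. Chromosome 8 and the loci that the authors added to the annotation (new loci) were outside the choice. The 118 genes come from 36886 in the table, and from 18281 annotated genes outside chromosome 8 that reached the 2 CPM in Siysl1. Because the ratio chose them, the size of their rise is a description here and was not tested.

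RNA was sequenced from spikelets of foxtail millet (Setaria italica), a small diploid cereal, collected 3 days after flowering, with 3 libraries of the inbred line Yugu1 as wild type (WT) and 3 of Siysl1. All plants grew in a greenhouse at 30 °C with 14 h of light. By the labels, each library of a genotype comes from an individual plant of its own. The sources used here do not give how the mutation was made or whether the mutant is 1 line. The titles call every mutant library Siysl1, while the genotype field names SiYSL1 for replicate 1, SiYSL2 for replicate 2 and SiYSL3 for replicate 3. Titles were followed, and replicate 1 is also given by itself below. Library totals ran from 30368325 to 32691355 counts, so that 3 counts in a library, the limit that a count of 0 allows, come to about 0.1 CPM.

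YSL proteins (yellow stripe-like) are membrane transporters for iron and related metals in complex with nicotianamine, or with the phytosiderophores that grasses release from their roots. In cereals, members of the family act in uptake at the root, in loading of the phloem and in delivery to the developing grain. A few days after flowering a spikelet holds the young caryopsis together with glumes, lemma, palea and floral remains. No source used here pairs the identifiers of the table with gene names: of these identifiers, 0 occur in the RefSeq gene table of the Yugu1 assembly. The 118 genes are therefore described by level, chromosome, length and position, and the transcript of SiYSL1 and marker genes of spikelet parts were not analysed here. In whole spikelets, more cells of a type and more RNA per cell cannot be told apart.

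The raised genes were a weak to moderate set in Siysl1, with a few abundant transcripts at its head. Mean Siysl1 levels ran from 2.00 to 1478 CPM with a median of 10.1 CPM, and mean WT levels from 0 to 86.0 CPM with a median of 0.57 CPM. Of the 118 genes, 39 had between 2 and 5 CPM in Siysl1, 54 between 5 and 20, 18 between 20 and 100 and 7 at least 100 CPM. In WT, 74 of them stayed under 1 CPM and 8 reached 5 CPM. Summed over the 118 genes, the WT libraries held 287.7, 291.2 and 285.4 CPM and the Siysl1 libraries 3793, 4137 and 4081 CPM, or 288.1 ± 2.95 (SD, n = 3) against 4003 ± 184.5 CPM. The first gene by abundance held 36.9% of that Siysl1 sum. Without it the sums were 202.1 ± 3.55 and 2525 ± 161.3 CPM.

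**Figure D1:**
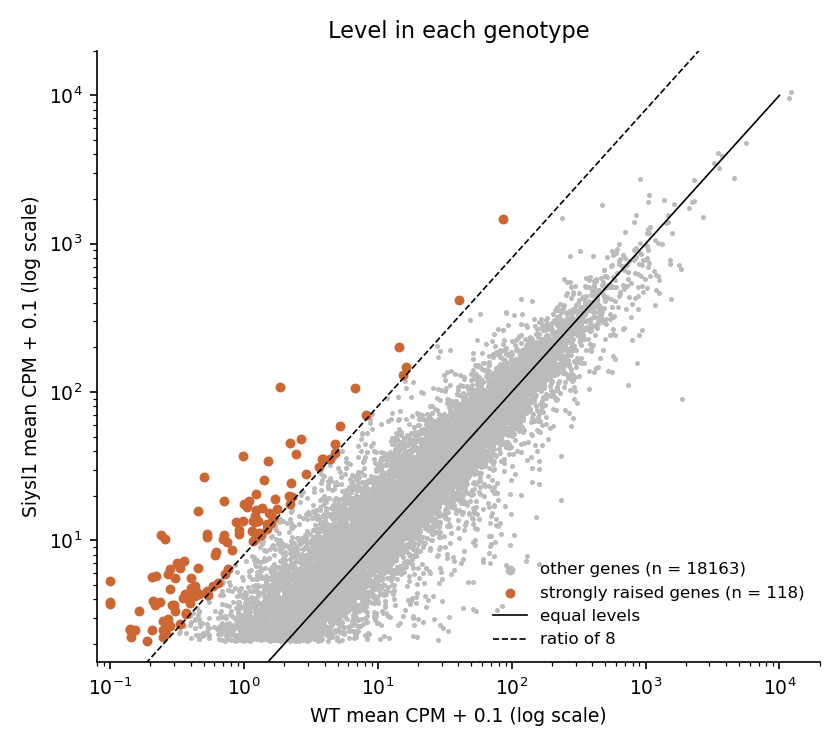
Mean CPM plus 0.1 in WT (x axis) and Siysl1 (y axis), both on log scales, for the 18281 annotated genes outside chromosome 8 with at least 2 CPM in Siysl1; each point is a gene, orange for the 118 strongly raised genes, and the lines mark equal levels and a ratio of 8. Most raised genes lie at the low end, and the one at 1478 CPM stands far above the rest.

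The ratio ran from 8.01 to 58.2 with a median of 11.9. It lay between 8 and 10 in 39 genes, between 10 and 16 in 43, between 16 and 32 in 27 and at 32 or more in 9. The set has no natural edge at 8: another 89 genes with at least 2 CPM in Siysl1 had a ratio between 6 and 8. The member just inside the limit, on chromosome 5, had 0.40, 0.36 and 0.54 CPM in WT and 3.81, 3.85 and 4.95 CPM in Siysl1, a ratio of 8.01. The gene just outside, on chromosome 2, had 0.69, 0.53 and 0.51 CPM in WT and 3.84, 6.06 and 5.99 CPM in Siysl1, a ratio of 7.99. At the other limit, the weakest member had 2.00 CPM in Siysl1 and the nearest gene left out had 1.82 CPM.

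Every one of the 118 genes had enough counts for edgeR's quasi-likelihood test, and 118 were called higher in the mutant at an adjusted p under 0.05. Among all 25117 genes tested, 29.9% were called higher and 28.7% lower (7515 and 7212 genes; 9266 and 5564 without a scaling factor, which shifts the median log2 fold change of all genes from 0.01 to 0.11). The lowest Siysl1 library lay above the highest WT library in 118 of the 118 genes, in 39.9% of all tested genes and in 43.8% of the 18281 genes with at least 2 CPM. Since the rule used the same libraries, nothing follows from these counts for the raised genes. Their fitted log2 fold changes ran from 2.94 to 10.3 with a median of 3.84, beside 0.01 over all tested genes.

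The most abundant raised gene was Seita.3G244300.v2.2 on chromosome 3. Its FPKM, a level per length of transcript, was 42.4, 40.8 and 40.8 in the WT libraries and 696.6, 725.4 and 707.4 in the Siysl1 libraries. The 2 sets of libraries were far apart and each was tight, at 41.3 ± 0.89 and 709.8 ± 14.6 FPKM (SD, n = 3). It moved from place 4109 to place 73 among all genes ranked by FPKM, and its ratio was 17.2.

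The second gene by FPKM, also on chromosome 3, had 43.1, 45.3 and 47.1 FPKM in WT and 423.2, 491.9 and 486.6 FPKM in Siysl1. In WT it stood slightly above the first gene, and in Siysl1 below it. The third, on chromosome 5, had 14.6, 14.7 and 12.7 FPKM in WT and 205.9, 196.3 and 188.9 FPKM in Siysl1. Among the first 10 by FPKM it was the exception in having its highest Siysl1 value in replicate 1; the other 9 were lowest there. The fourth and the fifth, on chromosomes 2 and 5, rose from 15.2 ± 1.37 to 136.7 ± 6.23 and from 15.2 ± 1.26 to 125.7 ± 9.04 FPKM. Those 5 genes were the raised genes among the 1000 highest of all genes in Siysl1, and 0 of the 118 were among the 1000 highest in WT.

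**Figure D2:**
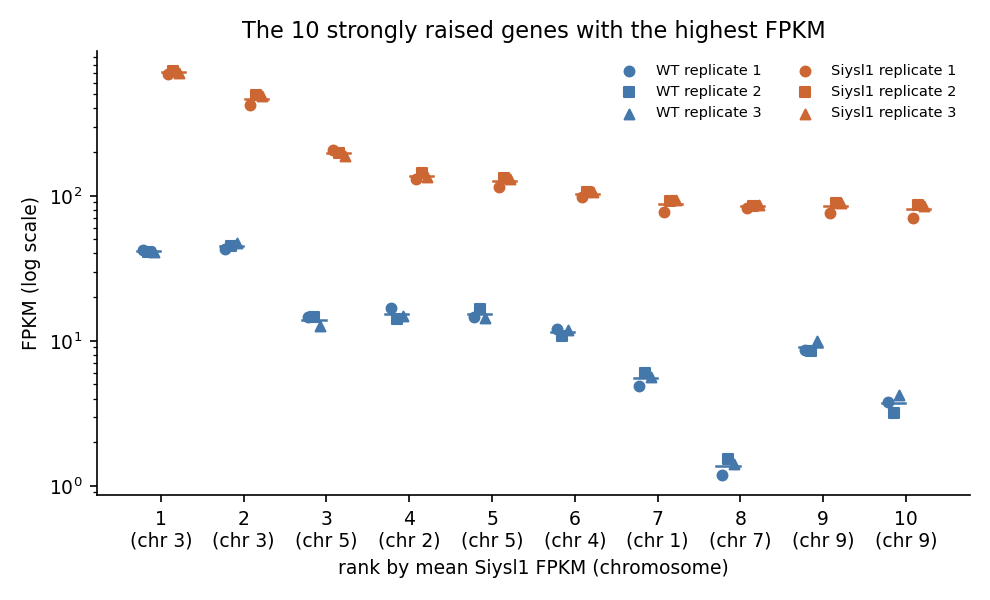
FPKM (y axis, log scale) in each library of the 10 strongly raised genes with the highest mean FPKM in Siysl1, in rank order with their chromosome; symbols are replicates, blue for WT and orange for Siysl1, and short lines are means of 3 libraries. WT and Siysl1 libraries do not overlap in any of the 10. Since the rule chose the genes from these libraries, nothing follows from this. On CPM the lowest Siysl1 library lay above the highest WT library in all 118 raised genes and in 39.9% of all tested genes. The eighth gene has the lowest WT level, 1.38 FPKM.

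With 0.1 added to both means, the largest ratio belonged to Seita.7G306400.v2.2 on chromosome 7, the eighth gene by FPKM. That order rests on the added 0.1, which limits the ratio of genes at or near 0 in WT: by fitted log2 fold change this gene stood at 5.84, and 6 others stood above it, between 5.85 and 10.3. It had 48, 59 and 56 counts in the WT libraries and 3217, 3521 and 3483 counts in the Siysl1 libraries, or 1.74 ± 0.23 and 107.2 ± 2.30 CPM, a ratio of 58.2. This was the single gene among both the first 10 by FPKM and the first 10 by ratio. A gene on chromosome 5 with a ratio of 52.6 had 0.34, 0.43 and 0.45 CPM in WT and 22.7, 27.6 and 29.3 CPM in Siysl1. A gene on chromosome 9 with a ratio of 37.5 had 0.93, 0.95 and 0.77 CPM in WT and 34.3, 39.4 and 37.1 CPM in Siysl1. Large ratios were thus found at moderate levels too, where the WT value rests on more than a few counts.

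For 3 raised genes no WT library had a count. The first, on chromosome 2, had 128, 201 and 171 counts in the Siysl1 libraries, or 5.22 ± 1.00 CPM. Set against the floor of 3 counts per library it was at least 54.4-fold higher in Siysl1. The others, on chromosomes 3 and 4, had 3.76 ± 0.47 and 3.63 ± 0.28 CPM in Siysl1 and were at least 39.1-fold and 37.8-fold higher. Another 13 genes had 0 counts in 1 or 2 WT libraries and no more than 30 counts in any, and 102 had counts in all 3. Zeros fell in WT replicate 1 for 6 of these 13 genes, in replicate 2 for 4 and in replicate 3 for 7. Most raised genes were hence detected in the wild type, at a low level.

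The 3 Siysl1 libraries were not alike for these genes. The rule used the mean over these libraries, to which each contributes, but not the comparison between them. The CPM was lowest in replicate 1 in 91 of the 118 genes (77.1%) and highest there in 9, while replicates 2 and 3 were highest in 54 and 55. Among the 18163 other genes with at least 2 CPM in Siysl1, replicate 1 was lowest in 41.2% and highest in 40.4%. The level in replicate 1 was 0.86 of the mean of replicates 2 and 3 (median over the raised genes, quartiles 0.80 and 0.94), beside 1.00 for the other genes (0.91 and 1.07). Replicates 2 and 3 stood close together, with a median ratio of 1.00 between them and quartiles of 0.92 and 1.07. In WT no library stood apart for the raised genes: replicates 1, 2 and 3 were highest in 41, 35 and 39 of them.

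**Figure D3:**
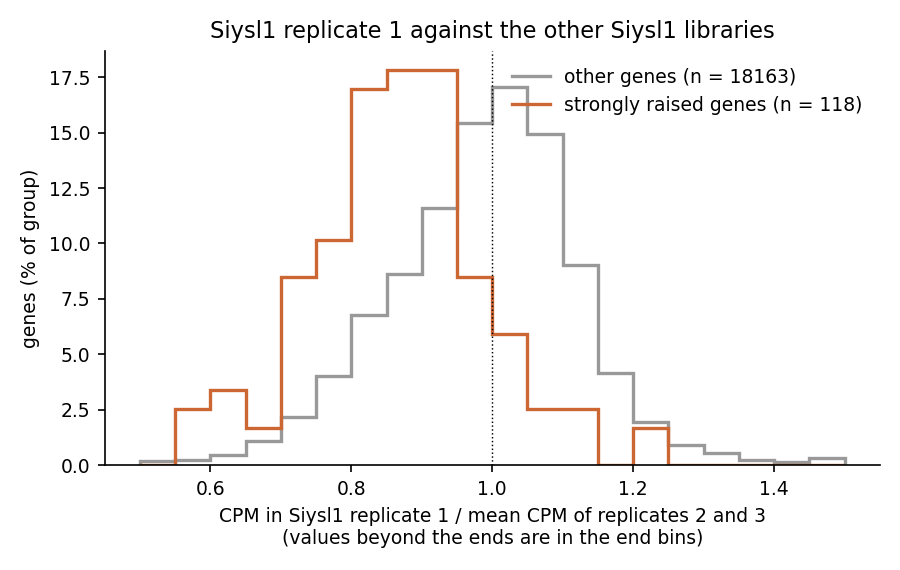
Share of genes (y axis, % of each group) by the CPM in Siysl1 replicate 1 divided by the mean CPM of Siysl1 replicates 2 and 3 (x axis), in bins of equal width, for the 118 strongly raised genes (orange) and the 18163 other genes with at least 2 CPM in Siysl1 (grey). The orange outline lies mostly to the left of 1 (103 of the 118 genes), around its median of 0.86, and the grey one around 1.00.

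The shortfall in replicate 1 was found at each level of expression. Replicate 1 was lowest in 31 of 39 raised genes under 5 CPM, in 38 of 54 from 5 to 20 CPM and in 22 of 25 at 20 CPM or more. Values under 0.9 of the other libraries' mean were found in 61.1% of the 18 raised genes between 20 and 100 CPM, against 14.7% of the other genes at that level. Between 2 and 5 CPM the shares were 64.1% and 41.7%, so weak genes in general tended the same way. The deepest deficit was in a gene on chromosome 4 with 3.71, 6.21 and 7.12 CPM in Siysl1 replicates 1 to 3, a factor of 0.56. The opposite extreme, on chromosome 6, had 12.01, 10.5 and 8.75 CPM, and its replicate 1 lay above the others' mean. Replicate 1 lay below both other libraries beyond counting error (exact Poisson 95% intervals apart) in 22 raised genes (18.6%) and above both in 1 (0.85%), beside 9.18% and 7.80% of the other genes.

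This pattern was not confined to the raised genes. Over all genes with enough counts, replicate 1 stood farther from replicates 2 and 3 than these stood from each other. Replicate 1 was lowest in 68.6% of the 290 genes with a ratio from 4 to 8, in 56.1% of the 1570 with a ratio from 2 to 4 and in 38.4% of the 15743 with a ratio from 0.5 to 2. It was also lowest in 64.2% of the 453 genes with a ratio from 0.25 to 0.5, which are lower in Siysl1. In most raised genes replicate 1 was therefore the mutant library nearest to WT, while in lowered genes it was often the one farthest from it. A ratio of 8 was reached in 95 of the 118 genes with replicate 1 alone, in 115 with replicate 2 and in 114 with replicate 3, and in 93 genes with each of them. Replicate 1 is the library whose every label names SiYSL1; the label, the plant and the preparation of a library cannot be told apart here.

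Spread between the Siysl1 libraries is given beside that of other genes of the same level, with no test. The median coefficient of variation over the 3 libraries was 8.96% in the 18 raised genes from 20 to 100 CPM and 4.88% in the other genes of that range. Over replicates 2 and 3 alone it was 1.85% and 2.52%. From 5 to 20 CPM it was 11.3% and 7.79% over 3 libraries and 5.90% and 4.78% over replicates 2 and 3. Between 2 and 5 CPM the 3-library values were 12.6% and 12.4%, and at 100 CPM or more 4.46% and 3.99%, so the gap was small at both ends of the range.

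Raised genes were spread over the 8 numbered chromosomes of the choice, at unequal density. Chromosome 5 held 28, or 9.87 per 1000 annotated genes with at least 2 CPM in Siysl1, and chromosome 7 held 17 (9.13 per 1000). Chromosome 6 held 4 (3.09 per 1000) and chromosome 9 held 14 (3.94 per 1000), against 6.46 per 1000 in all. The other 4 chromosomes held 11 to 16 each, and 0 of 81 such genes on unplaced sequence were raised. By summed level chromosome 3 led with 2074 ± 71.1 CPM in Siysl1 and 140.7 ± 1.11 CPM in WT, which rests on the first 2 genes by FPKM. For comparison, the mirrored rule (at least 2 CPM in WT and at least 8 times above Siysl1) found 146 lowered genes, 28 of them on chromosome 5, 12 on chromosome 7 and 25 on chromosome 9.

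Some raised genes stood side by side. Following the serial numbers inside the identifiers, 20 of the 118 genes (16.9%) formed 8 runs of direct neighbours, made up of 6 pairs, a run of 3 on chromosome 9 and a run of 5 on chromosome 2. For the 146 lowered genes the same count was 16 genes (11.0%) in 7 runs, the longest of 4. Over wider distances the 2 sets were closer. Within 10 places of another gene of their set lay 23.7% of the raised and 21.2% of the lowered genes. The median distance to the nearest one was 65.0 and 68.5 places. Lengths implied by counts and FPKM were nearly equal within several runs. The pair on chromosome 1 had implied lengths of 2453 and 2458 bases, the pair on chromosome 3 had 532.3 and 532.9 bases, and the run on chromosome 9 had 555.3, 553.3 and 558.9 bases. A pair on chromosome 7, with 698.8 and 777.9 bases, differed more. Neighbours of like length may be near-identical copies, between which counting can split or share reads; their sequences were not analysed here, so the value of each gene inside a run is uncertain.

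The run on chromosome 2 rose from near silence. Its 5 genes had 0, 10 and 0 counts, 22, 20 and 18, 0, 4 and 2, 6, 5 and 2, and 0, 23 and 7 counts in WT replicates 1 to 3. In Siysl1 they had 92, 132 and 137 counts, 247, 318 and 352, 91, 107 and 110, 269, 369 and 392, and 124, 173 and 162 counts. Replicate 1 was the lowest Siysl1 library in all 5, and their implied lengths were 735.1 to 897.3 bases. Of the genes beside the run, the gene right after it had 0 counts in WT and 41, 34 and 32 counts in Siysl1, at least 11.7-fold higher against the floor (edgeR with Benjamini-Hochberg adjustment, adjusted p = 1.29e-06), and missed the choice at 1.13 CPM. The gene right before it had 0 counts in WT and 8, 5 and 10 counts in Siysl1, too few to be tested. Next outward on that side, a gene at 23.1 ± 0.87 CPM in WT and 28.1 ± 1.10 CPM in Siysl1 was higher by a log2 fold change of 0.19 ± 0.07 (SE; edgeR adjusted p = 0.0284). The one beyond it went the other way, from 0.99 ± 0.28 to 0.40 ± 0.14 CPM (log2 fold change -1.40 ± 0.37, edgeR adjusted p = 0.00412). On the far side, the gene at place 7 had 0 counts in every library.

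The run on chromosome 9 was more abundant. Its 3 genes had 1.61 ± 0.15, 2.34 ± 0.19 and 2.09 ± 0.30 CPM in WT and 18.7 ± 3.37, 37.9 ± 1.58 and 44.9 ± 4.84 CPM in Siysl1 (SD, n = 3). On the side before the run, strong changes of opposite direction lay close by. The gene at place -1, separated from the run by 1 other gene, had 238, 182 and 236 counts in WT and 0, 2 and 0 in Siysl1 (edgeR adjusted p = 3.93e-11). The gene at place -3 fell from 73.5 ± 4.14 to 16.9 ± 0.97 CPM (log2 fold change -2.21 ± 0.07, edgeR adjusted p = 1.94e-13). The gene at place -2 was lower (log2 fold change -0.29 ± 0.07, edgeR adjusted p = 0.00173), and the gene at place 0 was higher by 0.24 ± 0.06 on the log2 scale (edgeR adjusted p = 0.00212). After the run, the genes at places 4 and 5 were not called, and the gene at place 6 had 0 counts in every library. At place 7 a gene was higher by 0.25 ± 0.07 on the log2 scale (edgeR adjusted p = 0.00433).

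**Figure D4:**
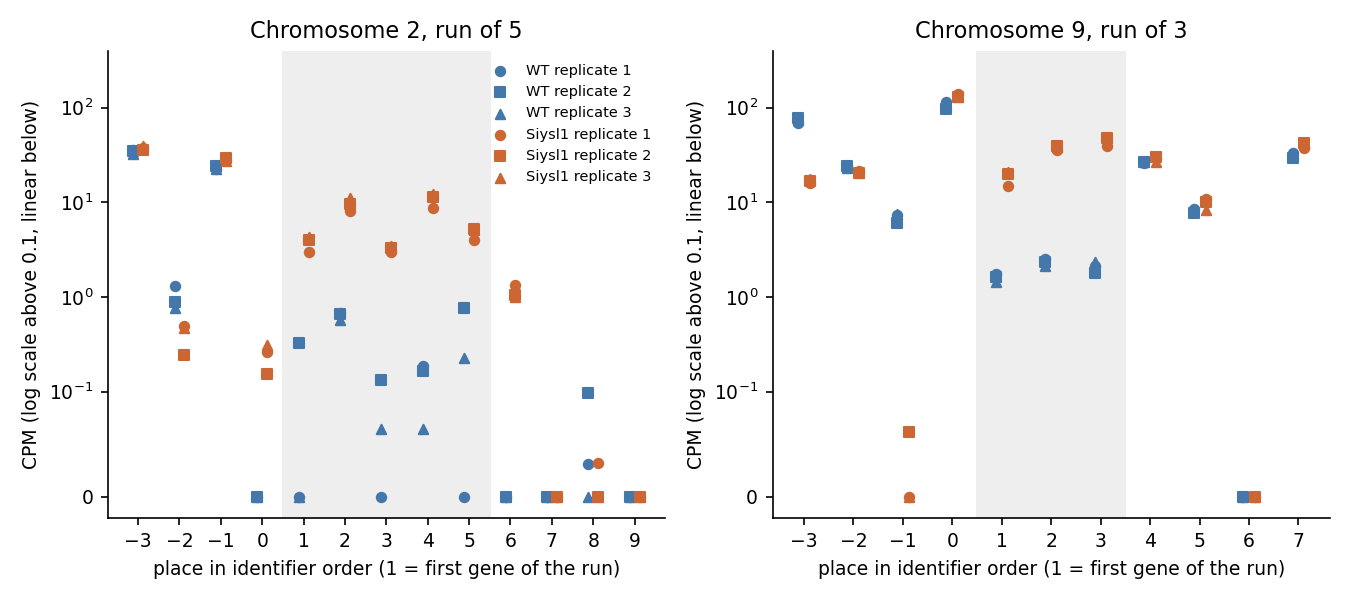
CPM in each library (y axis, log scale above 0.1 and linear below) for the run of 5 raised genes on chromosome 2 and the run of 3 on chromosome 9 (shaded) with 4 genes on each side, by place in identifier order (x axis); symbols are replicates, blue for WT and orange for Siysl1. On chromosome 2 the gene after the run is at 0 in every WT library, and on chromosome 9 the gene at place -1 is nearly silent in Siysl1.

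Direct neighbours of raised genes, whose values the rule did not use, were called higher in a larger share than all tested genes. The shares are given as a description, with no test of their difference. All tested genes include chromosome 8, the new loci and the raised and lowered genes, while the neighbours include none of these. Of 212 direct neighbours that were neither raised nor lowered by the 8-fold rules, 139 had enough counts to be tested, and 65 of them (46.8%) were called higher and 28 (20.1%) lower by edgeR's quasi-likelihood test, beside 29.9% and 28.7% of all tested genes. Rises of at least 2-fold were found in 37 of the 139 (26.6%), beside 10.9% of all. The median log2 fold change of the neighbours was 0.28, beside 0.01. Farther away the share was lower but did not fall steadily, with 32.4% higher at 2 places, 36.4% at 3, 31.9% at 4, 26.7% at 5 and 29.3% at 6. Without a scaling factor 55.4% of the direct neighbours and 36.9% of all genes were higher, and with Siysl1 replicate 1 alone, where the spread comes from the WT libraries and the lone library is assumed to vary as they do, 39.9% and 23.3%.

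Neighbours of lowered genes leaned the other way. Of 196 tested direct neighbours of the 146 lowered genes, 79 (40.3%) were lower and 47 (24.0%) higher. Farther away 36.6% were lower at 2 places, 36.0% at 3 and 28.6% at 4, beside 28.7% of all tested genes. No source used here says whether counting used strand, so overlapping neighbours may share reads, which was not tested. Of the 118 raised genes, 98 had no other raised gene within 2 places. The neighbours of these alone, most of the 139 above, were higher in 62 of 128 cases (48.4%). The share was thus no lower without the runs. Runs count only genes that met both limits of the choice, so neighbours raised less may belong to similar groups, which was not tested.

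**Figure D5:**
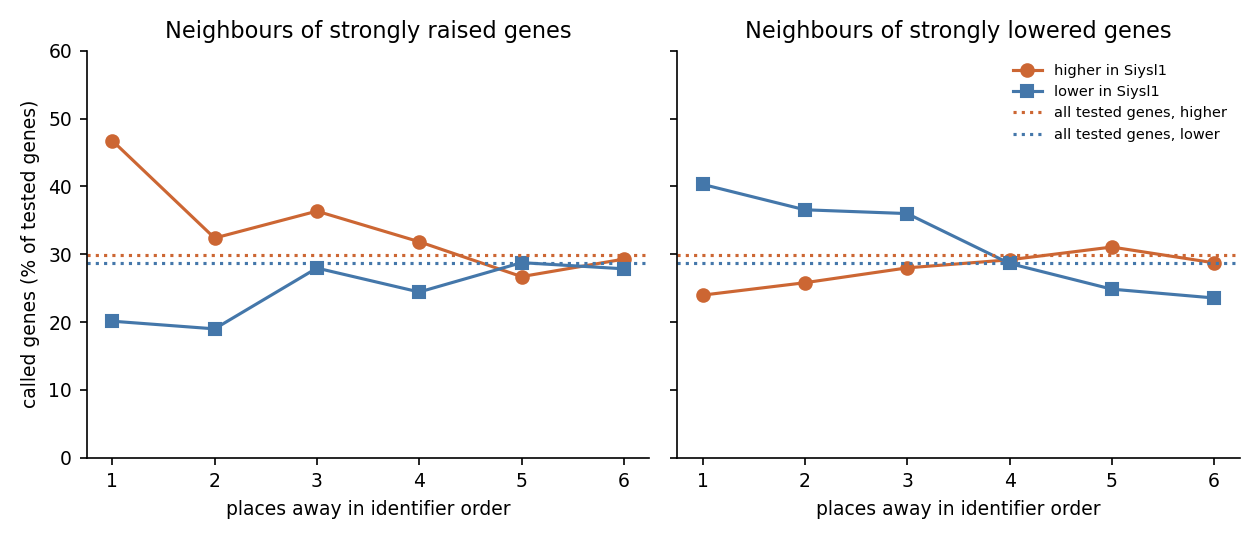
Share of tested genes called higher (orange) or lower (blue) in Siysl1 (y axis, %) by the number of places from the nearest strongly raised gene (left) or strongly lowered gene (right) in identifier order (x axis), without the raised and lowered genes themselves; dotted lines are the shares over all 25117 tested genes. Direct neighbours have the largest share in the direction of the gene beside them, at 46.8% higher on the left and 40.3% lower on the right. On the right the shares at 2 and 3 places, 36.6% and 36.0% lower, lie close to it.

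Implied lengths of the raised genes ran from 244.5 to 3942 bases. The median implied length was 957.3 bases (quartiles 611.3 and 1674), beside 1372 bases (881.0 and 2002) for the other genes with at least 2 CPM in Siysl1 and 1292 bases for the lowered genes. Implied lengths under 1000 bases were found in 63 of the 118 (53.4%), in 30.6% of the other genes and in 34.9% of the lowered ones. The length comes from the count, the FPKM and the library total, as a median over the libraries with counts. It is known only up to a factor common to all genes. Between libraries it varied by 0.168% (median coefficient of variation over genes with at least 50 counts everywhere). At fewer counts, as most raised genes had in WT, single libraries can imply quite different lengths. On FPKM, which takes length into account, the raised genes had a median of 9.59 in Siysl1 and 0.57 in WT.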

How the data were processed

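The authors deposited 2 tables of the 6 libraries, 1 of raw counts per gene, which were not normalized, and 1 of FPKM; the FPKM values are the authors' deposited levels per kilobase of transcript scaled to library size, named so by the table's title. Not given in the sources used here: aligner, counting tool, strand setting and genome build. CPM were computed from the counts and each library's total. All genes were tested with edgeR 4.0.16 under R 4.3.3 (quasi-likelihood test, TMM scaling, default filterByExpr, genotype as the only term, Benjamini-Hochberg adjustment over 25117 genes). Standard errors were derived from the F statistic. Replicate pairs differed by at least 2.11 chi-square units per gene, above counting noise, so none was taken as a repeat deposit. That lowest value was for Siysl1 replicates 2 and 3. Siysl1 replicate 1 differed from them by 7.1 and 7.2 units, and the WT pairs differed by 3.3 to 4.3. The test was run on simulated counts with a spread common to all genes and few changed genes. In the data genes can differ in spread and many were called, so that run does not cover these conditions. Chromosome and order were read from the identifiers. The 118 genes, the lists and the comparisons were chosen with earlier results of these data known. Identifiers are printed for 2 genes, the highest by FPKM in Siysl1 and the highest by ratio; the other genes, runs and flanking genes are given by chromosome and rank, the flanks chosen after their values were seen. Intervals and floors cover counting error only. Alternatives were other scalings, limits, filters, DESeq2 1.42.0, a replicate block and leaving out each library. Planned sums of levels were not tested, since the rule fixes their direction.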

Additional observations from a re-analysis of the deposited data

How the results depend on the processing

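The number of raised genes follows its limits: 60 and 23 with 0.5 and 1 in place of 0.1 in the ratio, 408 and 36 at ratios of 4 and 16, and 64 with the lowest Siysl1 against the highest WT library. Scaling by TMM or DESeq2 size factors kept 102 and 99 of the 118 and added none. The same limits applied to FPKM in place of CPM, so at least 2 FPKM in Siysl1, gave 122, of which 104 were shared. Without 1 library there were 114 to 130, and 109 to 118 were shared. Replicate 1 of Siysl1 alone gave 98 (91 shared); replicates 2 and 3 alone, chosen after seeing the data, gave 129 each (113 and 114 shared). Genes silent in WT were 3, and 3 to 5 without 1 WT library, by construction never fewer. Replicate 1 was lowest in 92 genes on TMM or FPKM values. All 118 genes were called in each of the other fits with more than 1 library per genotype. The rule chose these genes from the same libraries, so nothing follows from these calls for the raised genes. Direct neighbours called higher were 65 of 139 tested, and 63 to 69 of 139 to 141 without 1 library. Those were 44.7% to 48.9% of the neighbours, beside 26.9% to 29.9% of all tested genes in the same fits. At 2 to 5 places away 180 of 566 were higher (31.8%). Same-numbered libraries deviated together only weakly (r = 0.06, 0.07 and 0.04), although each correlated best with its own number, a hint from the data only, so the numbers are not taken as pairs. With a replicate block 69 of 139 neighbours (49.6%) were higher, beside 30.9% of all tested genes. Depth limits WT values, whose median over the raised genes was 0.57 CPM.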

Other observations

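Outside the choice, 13 genes on chromosome 8 and 5 new loci met the same limits. The chromosome 8 genes had ratios of 8.59 to 44.0 (median 17.5) and 2.53 to 31.5 CPM in Siysl1. The new loci had ratios of 11.6 to 127.3 (median 24.0) and 2.71 to 18.8 CPM. Replicate 1 was the lowest Siysl1 library in 6 of the 13 and in 1 of the 5, beside 91 of the 118 raised genes; the difference was not tested.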
